A study of Mus musculus with 52 samples.

Results

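The 9 genes described here encode enzymes and receptors of 2 metabolic routes that restrain immune cells in tumors: Ido1, Tdo2, Kynu and Kmo of tryptophan breakdown, and Nt5e, Entpd1, Ada, Adora2a and Adora2b of extracellular adenosine. They were taken by name from the 27525 genes of the table of normalized counts. The samples were bulk mRNA libraries from subcutaneous KPC tumors, labelled KxPxCx, grown in male C57BL/6 mice aged 8 to 10 weeks from a cell line of Pdx1-Cre mice that carry, among other alleles, Trp53 LSL.R172H/+, and all tumors were collected on day 14 after treatment began. The 4 groups of 8 tumors were untreated controls, tumors injected once with 2 μg of ADU-S100, an agonist of the innate DNA sensor pathway STING, tumors of mice given 4 intraperitoneal doses of 100 μg of the agonistic anti-LTbR antibody, which activates the lymphotoxin-β receptor, and tumors given the combination of both. Host cells of these immunocompetent mice and the transplanted tumor cells were sequenced together, so fewer cells of a type and less RNA per cell cannot be told apart.

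Indoleamine 2,3-dioxygenase (Ido1) and tryptophan 2,3-dioxygenase (Tdo2) open the tryptophan ring, which starts the kynurenine pathway. Tryptophan loss and kynurenine, a ligand of the aryl hydrocarbon receptor, both slow T cells, and Ido1 is a classical target of interferon gamma. Downstream, kynurenine 3-monooxygenase (Kmo) and kynureninase (Kynu) use kynurenine up. On the adenosine side, CD39 (Entpd1) strips extracellular ATP and ADP to AMP, CD73 (Nt5e) turns AMP into adenosine, adenosine deaminase (Ada) removes adenosine as inosine, and the adenosine receptors Adora2a and Adora2b raise cyclic AMP in the cells that sense it.

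Between 12762453 and 15591986 reads per library were recovered from the deposited values. None of the marker genes listed for leukocytes, T cells, regulatory T cells, B cells, macrophages, dendritic cells, neutrophils, mast cells, blood endothelium, fibroblasts and tumor epithelium was at 0 in any of the 32 tumors. Krt8, an epithelial keratin, was at 3372 normalized counts or more. Against untreated tumors, the combination group had more of 7 of 7 T cell, 3 of 4 regulatory T cell, 4 of 5 B cell, 4 of 7 macrophage, 3 of 7 dendritic cell, 1 of 5 neutrophil, 7 of 7 blood endothelium and 6 of 6 fibroblast markers and of the 1 leukocyte marker, where 19.6% of all genes were higher. It had less of 4 of 6 tumor epithelium and 4 of 5 tested mast cell markers, where 23.6% of all genes were lower, and the other mast cell marker, Kit, was higher. The share of each change below that follows from these shifts was not tested. Nothing in the labels ties a tumor to its own mouse or litter, so the p-values measure the spread between these tumors.

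Per kilobase of exon, the 5 adenosine genes were expressed above the 4 tryptophan genes at the median of the 32 tumors. Nt5e led with a median of 361 normalized counts per kb, from 247 to 563. It stood above Entpd1, with a median of 203 per kb, in 30 of 32 tumors. Ada followed at a median of 62.0 per kb and was below Entpd1 and above Adora2b in 32 of 32 tumors. The next 4 genes lay within each other's spread. Adora2b had a median of 19.1 per kb and was above Adora2a, at 15.1, in 25 of 32 tumors. Adora2a exceeded Kmo, at 13.0, in 20 tumors, and Kmo exceeded Ido1, at 11.6, in 16. Kynu, at 4.78 per kb, and Tdo2, at 1.74 per kb, were the lowest. The order of neighbours changed between groups. By group means, Adora2a was below Kmo and Ido1 under ADU-S100, at 11.4 against 13.5 and 11.9 per kb, and above Adora2b under anti-LTbR, at 18.5 against 16.8. Tdo2 had 0.9642 to 16.1 normalized counts in single tumors and was the only member that failed the filter on low values.

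**Figure D1:**
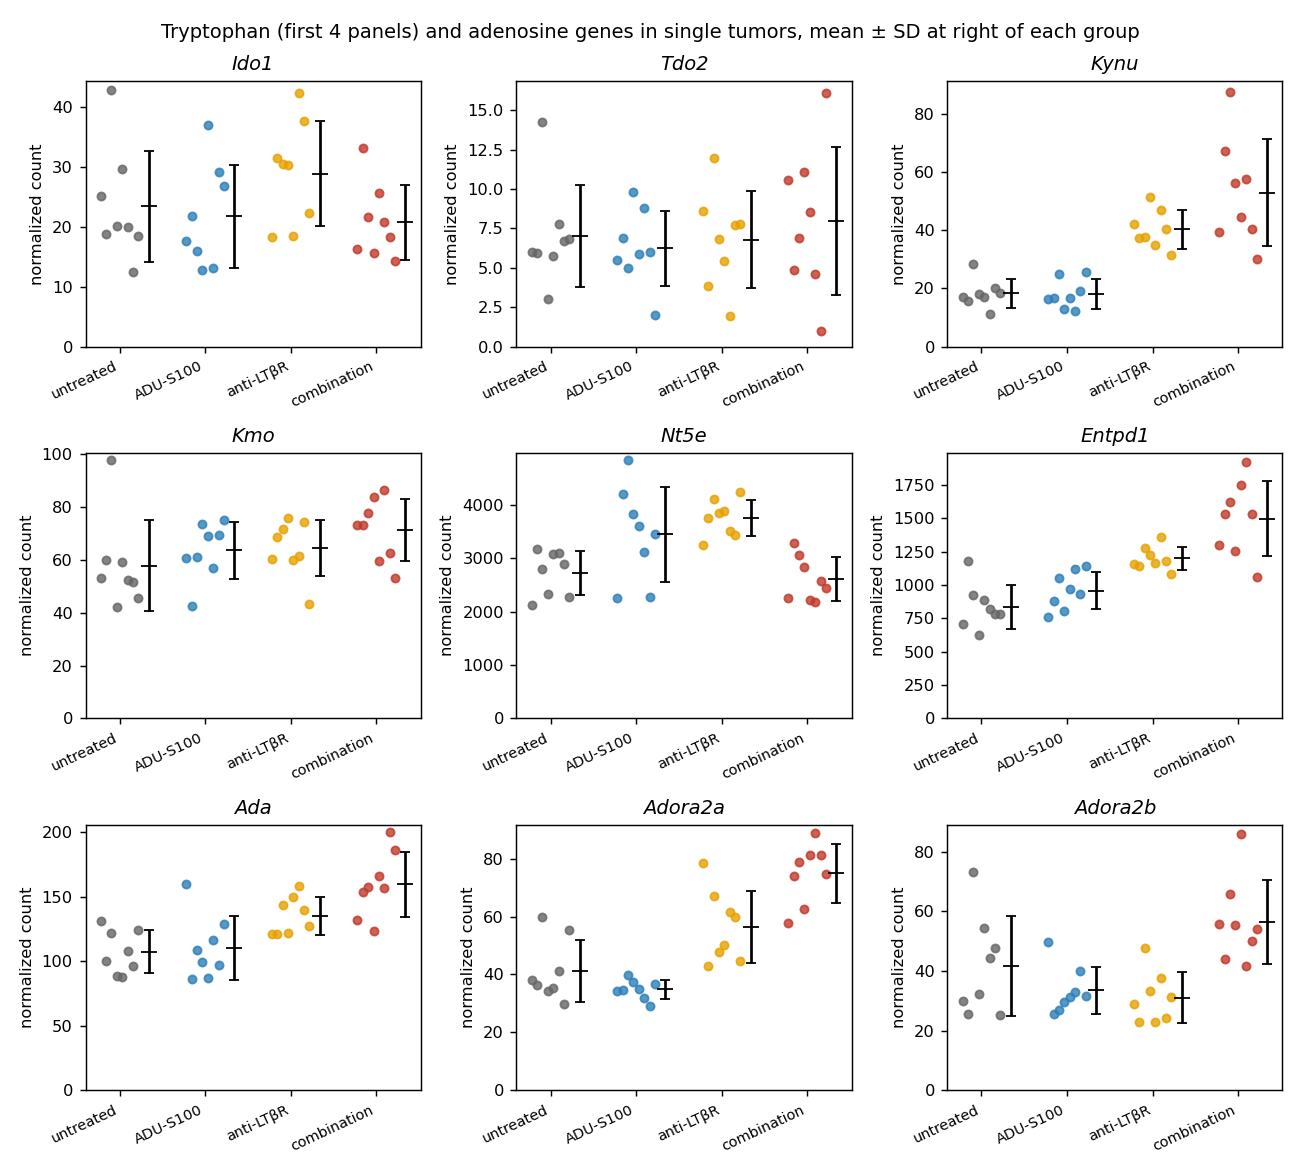
Each panel plots one member, with the normalized count of each of the 8 tumors of a group as a point on a linear axis from 0 and the group mean ± SD as a bar at its right. Kynu and Entpd1 have higher means in both antibody-treated groups than in untreated tumors, Nt5e has its highest means in the 2 single-agent groups, and Ido1 and Tdo2 overlap across all 4 groups.

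The main question was how the members stood after each treatment. In combination against untreated tumors, 4 of the 8 members tested were higher at a false discovery rate (FDR) of 0.05, namely Kynu, Entpd1, Ada and Adora2a, where 19.6% of the 16909 genes tested were higher. No member was lower, against 23.6% of genes. Kynu alone also passed the 2-fold limit, which 6.12% of genes did, and Kynu alone had groups without overlap, as 10.7% of genes had. The median of the 8 members was a log2 difference of 0.53, beside -0.02 over all genes tested.

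Under anti-LTbR alone, Kynu, Entpd1, Nt5e and Ada were higher than in untreated tumors, again 4 of 8 where 7.21% of genes were higher, and no member was lower, where 8.1% were. The count of all genes called, 2555, ran from 1582 without untreated tumor 1 and 1665 without anti-LTbR tumor 7 to 2927 when 1 tumor was left out. Kynu passed the 2-fold limit, as did 1.04% of genes, and Kynu and Nt5e had groups without overlap, as did 1.77%. Under ADU-S100 alone, no member passed the test by limma on day 14, and the share of all genes called higher was 0%. An unadjusted p under 0.05 was reached by 2408 of 16613 genes and by no member. DESeq2 on recovered reads called 39 genes in that comparison and edgeR called 1, none of them members.

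The 3 members Adora2b, Adora2a and Entpd1, were higher in combination than in anti-LTbR tumors, where 11.3% of genes were, and Nt5e was lower, where 15.3% were. Of all calls in this comparison, 42.6% were higher in the limma test, and 53.8% and 54.5% were by edgeR on recovered reads with its RLE and TMM scaling, which also changes the test and the genes kept. The number of members called was 4 in each. With only libraries above 14000000 reads, all calls went from 4504 to 1450. Entpd1 and Adora2a lost theirs by limma (adjusted p = 0.293 and 0.277). Against ADU-S100 tumors, the combination group was higher in Kynu, Adora2a, Adora2b, Entpd1 and Ada, where 20.2% of genes were higher, and lower in Nt5e, where 26% were lower. Kynu and Adora2a passed the 2-fold limit there, as did 6.17% of genes, and had groups without overlap, as did 12%. Anti-LTbR against ADU-S100 tumors showed Kynu, Adora2a and Entpd1 higher, where 3.38% of genes were. Kynu passed the 2-fold limit in it, as did 0.601% of genes, and Kynu and Adora2a had groups without overlap, as did 0.625%. With 1 tumor left out, the count of all genes called ran from 425 to 1498 around 1069 in this comparison, and fell by more than 1.5 times without ADU-S100 tumors 2 (425), 4 (529) or 5 (606) or anti-LTbR tumors 4 (570), 6 (454) or 7 (605). These comparisons share groups of tumors and are given side by side, not as independent support for each other.

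**Figure D2:**
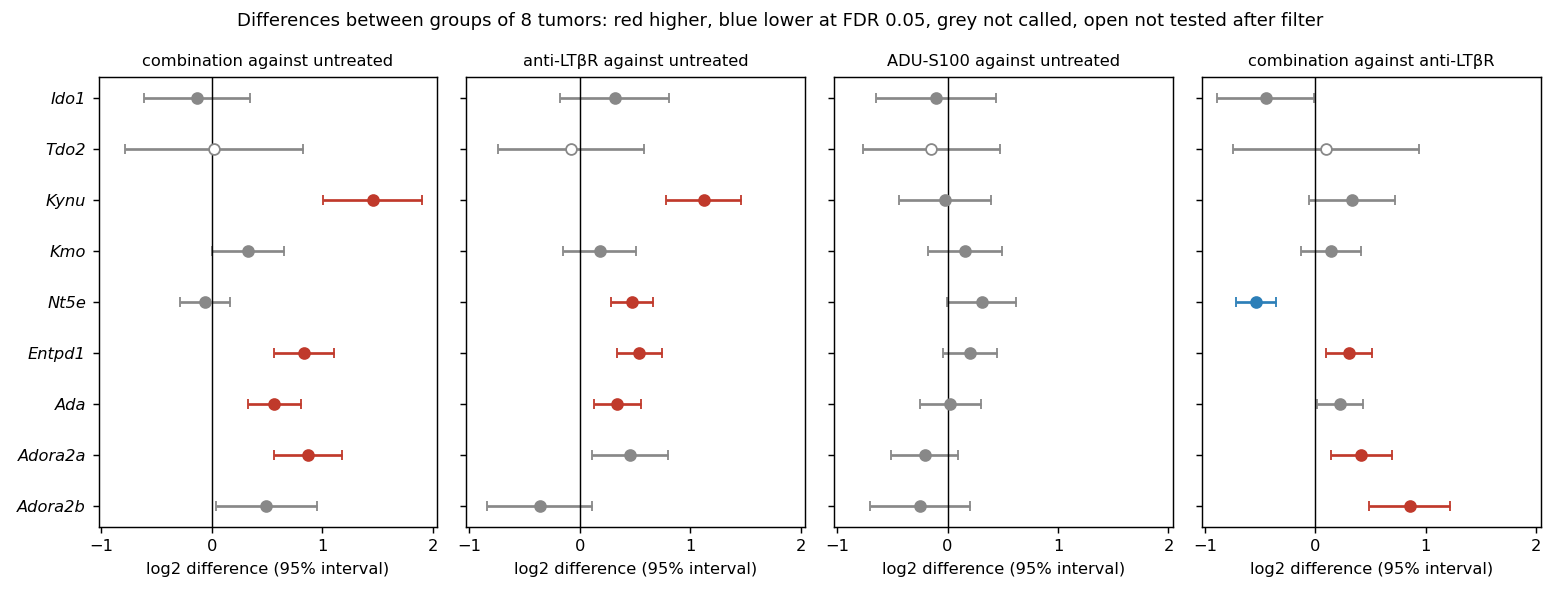
Each panel plots the log2 difference of the 9 members between 2 groups of 8 tumors with its 95% interval, red where higher and blue where lower at FDR 0.05, grey where not called, and open for Tdo2, which failed the filter. Kynu, Entpd1 and Ada are red in both panels that set an antibody-treated group against untreated tumors, the ADU-S100 panel has no coloured point, and Nt5e is red under anti-LTbR and blue where the combination is set against anti-LTbR.

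Ido1 (ENSMUSG00000031551, chromosome 8, 25074152 to 25087026, minus strand, GRCm39) catalyzes the first and rate-limiting step of tryptophan breakdown outside the liver. Its normalized counts ran from 12.4 through a median of 20.1 to 42.8 in untreated tumors, from 12.8 through 19.7 to 37.0 under ADU-S100, from 18.2 through 30.3 to 42.3 under anti-LTbR and from 14.2 through 19.5 to 33.2 under the combination. All 4 groups overlapped, and the highest untreated value was that of tumor 3. Combination against untreated gave a log2 difference of -0.13 ± 0.23 (SE, n = 8 and 8; 95% interval -0.62 to 0.35, adjusted p = 0.663), and anti-LTbR against untreated gave 0.32 (interval -0.17 to 0.81, adjusted p = 0.352). The combination lay 0.45 below anti-LTbR on the log2 scale (adjusted p = 0.115), and without combination tumor 2 this difference was -0.55 with an adjusted p of 0.0466. Beside Ido1, 11 of 13 genes of the interferon gamma list were higher in combination than in untreated tumors, where 19.6% of all genes were. Among them was Ifng itself, which encodes the cytokine, at a mean of 107 against 40.9 normalized counts (log2 difference 1.34 ± 0.30, adjusted p = 0.00174).

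Tdo2 (ENSMUSG00000028011, chromosome 3, 81864397 to 81883510, minus strand) carries out the same reaction and is known chiefly from liver. Median normalized counts were 6.36 without treatment, 5.94 after ADU-S100, 7.27 after anti-LTbR and 7.71 after the combination, and all groups overlapped. Untreated tumor 3, at 14.3, and combination tumor 8, at 16.1, were the 2 highest of the 32. A two-sided exact permutation test gave p = 0.967 for combination against untreated and 0.801 for anti-LTbR against untreated, where the smallest p this design allows is 0.000155. The 95% interval of the combination difference ran from -0.79 to 0.82 on the log2 scale, and differences within it are not excluded.

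Kynu (ENSMUSG00000026866, chromosome 2, 43445341 to 43572735, plus strand), the enzyme that cleaves kynurenine and 3-hydroxykynurenine, differed most from untreated tumors among the members in both antibody-treated groups. It ran from 11.1 through a median of 17.6 to 28.5 normalized counts in untreated tumors and from 12.1 through 16.7 to 25.8 under ADU-S100. Under anti-LTbR it ran from 31.4 through 39.1 to 51.7, and under the combination from 30.3 through 50.5 to 87.6. Every tumor that received the antibody, alone or with ADU-S100, was above every tumor that did not. In single comparisons of an antibody-treated with an antibody-free group, 0.625% to 12% of all genes had no overlap. The share of all genes with no overlap in the pooled groups was not computed. The mean was 53.0 ± 18.4 in combination and 18.3 ± 4.90 in untreated tumors (SD, n = 8 each), a log2 difference of 1.45 ± 0.21 (SE, adjusted p = 7.66e-05). Anti-LTbR alone gave 1.12 ± 0.16 (adjusted p = 0.000824), and ADU-S100 alone gave -0.02 (interval -0.44 to 0.39). The combination was 0.33 above anti-LTbR on the log2 scale, with an interval of -0.06 to 0.72 and an adjusted p of 0.194.

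Kmo (ENSMUSG00000039783, chromosome 1, 175447947 to 175489683, plus strand), the flavin enzyme that hydroxylates kynurenine, moved less. It had a median of 52.8 normalized counts in untreated tumors, from 42.2 to 97.7, and of 73.2 in combination tumors, from 53.1 to 86.6, with 65.1 in both single-agent groups. All groups overlapped, and untreated tumor 3, at 97.7, was above the other 31 tumors. Combination against untreated gave 0.32 ± 0.16 (adjusted p = 0.101), and without that tumor 0.44 with an adjusted p of 0.00977. No other comparison of Kmo was called.

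Of the neighbouring enzymes of tryptophan, 4 of the 8 tested were higher and 1 was lower in combination than in untreated tumors, where 19.6% of all genes were higher and 23.6% lower, with a median of 0.36 beside -0.02 over all genes. Qprt, which makes nicotinate mononucleotide at the end of the pathway, rose from a mean of 22.4 to 57.4 normalized counts (log2 difference 1.34 ± 0.28, adjusted p = 0.00128). Haao, the dioxygenase just before it, stood at 41.8 against 27.4 (0.60, adjusted p = 0.0287), and Kyat3, an aminotransferase that makes kynurenic acid, at 51.8 against 36.7 (0.50, adjusted p = 0.0258). Haao lost its call in 6 of the 16 fits that left out 1 tumor, without untreated tumors 1, 4 or 6 or combination tumors 2, 5 or 7, and in libraries above 14000000 reads (adjusted p = 0.139), and Kyat3 without untreated tumor 4 (adjusted p = 0.0508). The gene that fell was Tph1, which is not a kynurenine enzyme but starts serotonin synthesis from tryptophan, from 29.7 to 6.29 (-2.22 ± 0.40, adjusted p = 0.000368). It fell by 2.33 on the log2 scale under anti-LTbR as well (adjusted p = 0.000927). Mast cells make Tph1, and the summed level of the 6 mast cell markers ran from 732 to 1796 in untreated, 166 to 424 in anti-LTbR and 236 to 516 in combination tumors; the part of these cells in the Tph1 difference was not tested.

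Among genes of tryptophan transport and sensing, 5 of the 11 tested were higher and 3 lower under the combination, beside 19.6% and 23.6% of all genes, with a median of 0.18 beside -0.02 over all genes. The large neutral amino acid transporter Slc7a5 fell from 3464 to 2160 normalized counts (-0.69 ± 0.13, adjusted p = 0.000705), while Slc7a8, a transporter of the same family, rose from 434 to 627 (0.52 ± 0.10, adjusted p = 0.000554). Eif2ak4, the kinase GCN2 that senses uncharged transfer RNA, rose from 265 to 337 (0.34 ± 0.07, adjusted p = 0.00103), and Arnt, the partner of the aryl hydrocarbon receptor, from 934 to 1100 (0.24 ± 0.06, adjusted p = 0.00291).

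On the adenosine side, the sequences shown are the 250 bases before the RefSeq start of Entpd1, Ada and Adora2b (GRCm38.p6, plus strand for Entpd1 and Adora2b, minus strand for Ada), the members called in at least 1 comparison with the combination that have a promoter entry lying outside their own annotated exons. Kynu and Adora2a are not among these entries. Capitals mark letters of a searched motif, and Entpd1 has 2 starts.
Entpd1, chr19:40612116-40612365: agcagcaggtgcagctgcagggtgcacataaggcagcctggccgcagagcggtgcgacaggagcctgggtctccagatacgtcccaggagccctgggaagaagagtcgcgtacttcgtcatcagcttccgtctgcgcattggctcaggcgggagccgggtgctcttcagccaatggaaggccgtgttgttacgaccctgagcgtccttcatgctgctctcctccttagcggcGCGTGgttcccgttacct
Entpd1, chr19:40659520-40659769: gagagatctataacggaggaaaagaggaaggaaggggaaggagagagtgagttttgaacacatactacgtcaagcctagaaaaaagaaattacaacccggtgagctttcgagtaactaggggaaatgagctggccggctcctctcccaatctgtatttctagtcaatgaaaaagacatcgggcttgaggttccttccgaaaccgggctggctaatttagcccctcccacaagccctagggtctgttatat
Ada, chr2:163750240-163750489: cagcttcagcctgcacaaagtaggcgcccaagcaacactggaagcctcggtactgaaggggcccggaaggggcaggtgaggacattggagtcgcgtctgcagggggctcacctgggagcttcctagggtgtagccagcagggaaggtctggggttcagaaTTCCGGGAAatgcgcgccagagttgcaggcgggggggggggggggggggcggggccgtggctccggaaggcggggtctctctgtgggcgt
Adora2b, chr11:62248734-62248983: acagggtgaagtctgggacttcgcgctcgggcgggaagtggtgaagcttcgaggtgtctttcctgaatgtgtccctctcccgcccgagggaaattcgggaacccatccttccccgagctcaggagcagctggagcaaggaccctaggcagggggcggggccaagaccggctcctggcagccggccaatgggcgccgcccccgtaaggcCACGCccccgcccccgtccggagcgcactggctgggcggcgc
The motifs were searched on both strands. The interferon gamma-activated sequence TTCNNNGAA was found once, 90 bases before the Ada start, in 1 of 7 windows of 6 members and in 7.02% of 32851 windows of all genes. The aryl hydrocarbon receptor motif GCGTG was found in 4 of 7 member windows, and in 28.2% of all windows. It lay 18 bases before the first Entpd1 start and 42 before that of Adora2b, and the other matches were in the windows of Nt5e and Tdo2, which lie within annotated exons of those genes. The interferon-stimulated response core GAAANNGAA, the hypoxia motif ACGTG, which shares its last 4 letters with GCGTG, and the cyclic AMP motif TGACGTCA were in none of the 7 windows and in 7.13%, 16.6% and 1.55% of all. These matches describe letters and are no test of binding.

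Entpd1 (ENSMUSG00000048120, chromosome 19, 40600810 to 40730047, plus strand) is the ectonucleotidase CD39 of macrophages, regulatory T cells, B cells and endothelium. Normalized counts ran from 625 through a median of 800 to 1176 in untreated tumors and from 758 through 950 to 1145 under ADU-S100. They ran from 1083 through 1172 to 1357 under anti-LTbR and from 1059 through 1531 to 1925 under the combination. Untreated tumor 2, at 1176, was the one untreated tumor within the range of the antibody-treated groups, and 7 of 8 combination tumors were above it. The mean rose from 837 ± 166 to 1496 ± 281 (SD, n = 8 each), a log2 difference of 0.84 ± 0.13 (SE, adjusted p = 0.000116), and to 1198 ± 85.7 under anti-LTbR (0.54 ± 0.10, adjusted p = 0.00316). The combination was 0.30 above anti-LTbR (adjusted p = 0.0339), a call lost in 9 of 16 fits that left out 1 tumor, without anti-LTbR tumors 1, 2, 5, 7 or 8 or combination tumors 3, 5, 6 or 7 (adjusted p up to 0.0691), and in libraries above 14000000 reads (0.17, adjusted p = 0.293). Anti-LTbR was 0.33 above ADU-S100 (adjusted p = 0.0239), and this was lost without ADU-S100 tumor 2 (0.0540) or anti-LTbR tumor 6 (0.0531) and in a joint fit of all groups (0.0866). The summed level of the 7 macrophage markers ran from 17430 to 31840 in untreated and from 23170 to 35520 in combination tumors, and its part in the Entpd1 difference was not tested.

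Nt5e (ENSMUSG00000032420, chromosome 9, 88209250 to 88254146, plus strand), the ecto-5'-nucleotidase CD73, showed a different order of groups. Its normalized counts ran from 2122 through a median of 2858 to 3180 in untreated tumors, from 2266 through 3536 to 4846 under ADU-S100, from 3258 through 3809 to 4250 under anti-LTbR and from 2175 through 2521 to 3281 under the combination. All 8 anti-LTbR tumors were above all untreated tumors, and 7 of the 8 combination tumors lay within the range of the untreated ones. The log2 difference from untreated was 0.47 ± 0.09 under anti-LTbR (SE, adjusted p = 0.00394), 0.31 ± 0.15 under ADU-S100 (adjusted p = 0.345) and -0.06 ± 0.11 under the combination (interval -0.29 to 0.16, adjusted p = 0.664). The combination mean of 2611 ± 414 was below the anti-LTbR mean of 3760 ± 342 (SD), a difference of -0.54 ± 0.09 (SE, adjusted p = 0.000925), and 1 combination tumor reached above the lowest anti-LTbR tumor. Against ADU-S100 it was -0.37 ± 0.15 (adjusted p = 0.0478), a call lost in 12 of the 16 fits that left out 1 tumor, without ADU-S100 tumors 2, 3, 4, 5, 6 or 8 or combination tumors 1, 4, 5, 6, 7 or 8 (adjusted p up to 0.0951), and without a filter on low values (0.0628). The 6 fibroblast markers summed to 61240 to 97730 in untreated, 41680 to 117500 in ADU-S100, 48350 to 102300 in anti-LTbR and 103300 to 378000 in combination tumors. In the same order, the 6 tumor epithelium markers summed to 16060 to 29270, 13330 to 21910, 13200 to 16280 and 6882 to 14790. The part of either in the fall of Nt5e was not tested.

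Ada (ENSMUSG00000017697, chromosome 2, 163568504 to 163592160, minus strand), which removes adenosine, was higher in both antibody-treated groups than in untreated tumors. Its normalized counts ran from 87.9 through a median of 104 to 131 in untreated tumors, from 85.9 through 104 to 160 under ADU-S100, from 121 through 134 to 159 under anti-LTbR and from 124 through 157 to 200 under the combination. The untreated and combination groups overlapped in 1 combination tumor, number 4. The combination lay 0.57 ± 0.11 above untreated tumors (SE, adjusted p = 0.000938) and anti-LTbR lay 0.34 ± 0.10 above them (adjusted p = 0.0322). The anti-LTbR call was lost in 6 of 16 fits that left out 1 tumor, without untreated tumors 2 or 4 or anti-LTbR tumors 3, 5, 6 or 7, with an adjusted p up to 0.0638, in libraries above 14000000 reads (0.0924) and under a replicate block (0.0699). Combination against anti-LTbR gave 0.23 (adjusted p = 0.0980, and 0.0383 without combination tumor 4), and anti-LTbR against ADU-S100 gave 0.31 (adjusted p = 0.114, 0.0347 without ADU-S100 tumor 1 and 0.0485 in libraries above 14000000 reads). The 7 blood endothelium markers summed to 1283 to 1859 in untreated and 2352 to 3461 in combination tumors, and their part was not tested.

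Adora2a (ENSMUSG00000020178, chromosome 10, 75152711 to 75170619, plus strand), the high-affinity adenosine receptor of T cells and other leukocytes, ran from 29.7 through a median of 37.3 to 60.1 normalized counts in untreated tumors and from 29.1 through 34.8 to 40.0 under ADU-S100. It ran from 43.0 through 54.9 to 78.7 under anti-LTbR and from 57.7 through 76.8 to 88.9 under the combination. The ADU-S100 tumors were all below every tumor that received the antibody, while untreated tumors 3 and 8, at 60.1 and 55.5, reached into the antibody groups. Of all genes, 12% had no overlap between combination and ADU-S100 tumors and 0.625% between anti-LTbR and ADU-S100 tumors. The combination was 0.87 ± 0.15 above untreated (SE, adjusted p = 0.000225) and 1.08 ± 0.10 above ADU-S100 (adjusted p = 5.29e-06). Anti-LTbR against untreated was 0.45 ± 0.16 with an adjusted p of 0.0670, and it passed without untreated tumor 3 (0.53, adjusted p = 0.0303) or tumor 8 (0.52, adjusted p = 0.0427) and in a joint fit of all groups (0.0179). Combination against anti-LTbR was 0.42 (adjusted p = 0.0287), lost without anti-LTbR tumors 2, 4, 5 or 8 or combination tumors 5 or 6 (adjusted p up to 0.0596), in libraries above 14000000 reads (0.277) and under a replicate block (0.0504). The 7 T cell markers summed to 643 to 1654 in untreated and 1346 to 2559 in combination tumors, and their part was not tested.

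Adora2b (ENSMUSG00000018500, chromosome 11, 62139810 to 62157280, plus strand), the receptor that needs high adenosine, ran from 25.3 through a median of 38.4 to 73.3 normalized counts in untreated tumors, from 25.7 through 31.4 to 49.6 under ADU-S100, from 22.9 through 30.0 to 47.9 under anti-LTbR and from 41.6 through 54.8 to 86.0 under the combination. Both single agents had lower means than untreated tumors without passing the test, at 33.5 ± 7.87 and 31.1 ± 8.58 against 41.7 ± 16.7 (SD, n = 8 each), and the combination had the highest at 56.6 ± 14.1. The combination was 0.85 ± 0.17 above anti-LTbR (SE, adjusted p = 0.00263), with 6 of its 8 tumors above all anti-LTbR tumors, and 0.74 ± 0.16 above ADU-S100 (adjusted p = 0.00137). Against untreated tumors it was 0.49 ± 0.22 (adjusted p = 0.0774), and it passed under a replicate block (0.0434) and in a joint fit of all groups (0.0387). Without untreated tumor 3, whose 73.3 was the highest of its group, this was 0.62 with an adjusted p of 0.0183.

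The interaction of the 2 agents, tested over all 32 tumors, asks whether the combination differed from the sum of the single-agent differences on the log2 scale. It was called for 3 of the 8 members: positive for Adora2b and Adora2a, as for 7.33% of the 17649 genes tested, and negative for Nt5e, as for 11% of genes. Of all interaction calls, 39.9% were positive in the limma test, and 51.3% and 49.3% were by edgeR on recovered reads with its RLE and TMM scaling, which also changes the test and the genes kept. The number of members called was 3 in each. The interaction was also positive for 6 of 6 fibroblast, 6 of 7 blood endothelium, 3 of 4 regulatory T cell and 2 of 6 mast cell markers. It was positive for 1 of 7 T cell, 1 of 7 macrophage, 1 of 7 dendritic cell and 1 of 6 tumor epithelium markers. No B cell, neutrophil or leukocyte marker was called. The part of these cells in the members' interactions was not tested. For Adora2b the single agents summed to -0.61 and the combination gave 0.49, an interaction of 1.10 ± 0.28 (SE, adjusted p = 0.00663), or 55.3 normalized counts where the sum gives 25.3. For Nt5e the sum was 0.79 and the combination -0.06, an interaction of -0.85 ± 0.18 (adjusted p = 0.00192), or 2583 where the sum gives 4649. For Adora2a the interaction was 0.62 ± 0.19 (adjusted p = 0.0211), 74.3 normalized counts where the sum gives 47.9. All 3 kept their calls when each of the 32 tumors was left out in turn, Adora2b from 0.97 to 1.19, Nt5e from -0.93 to -0.77 and Adora2a from 0.54 to 0.69. Using only libraries above 14000000 reads, Adora2a was at 0.46 with an adjusted p of 0.213. The other 5 members had interactions from -0.35 for Ido1 to 0.35 for Kynu, each with an interval that held 0.

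**Figure D3:**
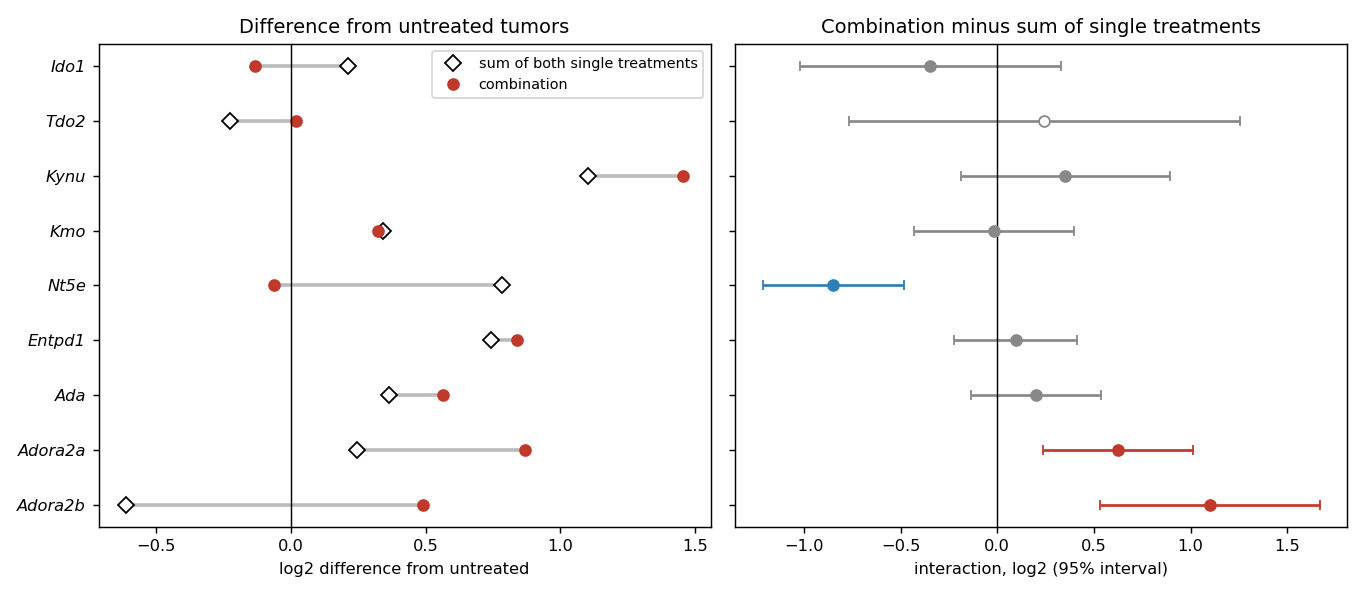
The left panel plots the log2 difference from untreated tumors of each member under the combination (red points) beside the sum of both single-agent differences (open diamonds), and the right panel their difference with its 95% interval, coloured where called at FDR 0.05. Nt5e lies left of 0 at -0.85, Adora2a and Adora2b lie right of it at 0.62 and 1.10, and the intervals of the others cross 0.

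The list named extracellular nucleotide hydrolysis also took in ATP channels and intracellular relatives. Of its 14 tested genes, 9 were higher and none lower in combination than in untreated tumors, beside 19.6% and 23.6% of all genes, with a median of 0.56 beside -0.02 over all genes. Entpd2, an ectonucleotidase that prefers ATP, rose from 114 to 363 normalized counts (1.75 ± 0.26, adjusted p = 8.12e-05) and was also 1.04 above anti-LTbR (adjusted p = 0.0011). The ATP-gated channel P2rx7 rose from 324 to 579 (0.86 ± 0.13, adjusted p = 8.88e-05), the ATP release channel Panx1 from 225 to 356 (0.66 ± 0.11, adjusted p = 0.000196) and Entpd7, an intracellular member of the CD39 family, from 124 to 183 (0.57 ± 0.11, adjusted p = 0.000501). These 4 genes were the ones with the lowest adjusted p in the list.

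Of 15 tested genes of adenosine uptake, removal and receptors, 4 were higher and 2 lower, where 19.6% of all genes were higher and 23.6% lower, and their median of 0.02 was near that of all genes. Slc29a1, the equilibrative nucleoside transporter ENT1, fell from 6009 to 3751 normalized counts (-0.69 ± 0.06, adjusted p = 4.77e-06) and was lower under anti-LTbR too (-0.27, adjusted p = 0.00329). Slc28a2, a concentrative nucleoside transporter, rose from 111 to 187 (0.80 ± 0.17, adjusted p = 0.00139). Dpp4, the surface protein CD26 that binds adenosine deaminase in humans, rose from 89.1 to 191 (1.06 ± 0.19, adjusted p = 0.000321), and Ampd3, the AMP deaminase of blood cells, from 362 to 658 (0.86 ± 0.12, adjusted p = 4.9e-05). The other receptors did not pass the test, Adora1 at 25.6 against 21.9 normalized counts and Adora3 at 35.4 against 39.8.

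Of the 13 interferon gamma genes, 11 were higher in combination than in untreated tumors, where 19.6% of all genes were, with a median of 0.42 beside -0.02. Under anti-LTbR alone, 9 of 13 were higher, where 7.21% of all genes were, with a median of 0.56 beside 0.0030. Beside Ifng, the transcription factor Irf8 rose under the combination by 0.64 ± 0.12 (adjusted p = 0.000411), the chemokine Cxcl9 by 0.91 ± 0.17 (adjusted p = 0.000615) and the checkpoint ligand Cd274 by 0.76 ± 0.16 (adjusted p = 0.00136) on the log2 scale. Ido1 was not among the genes called in either comparison.

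**Figure D4:**
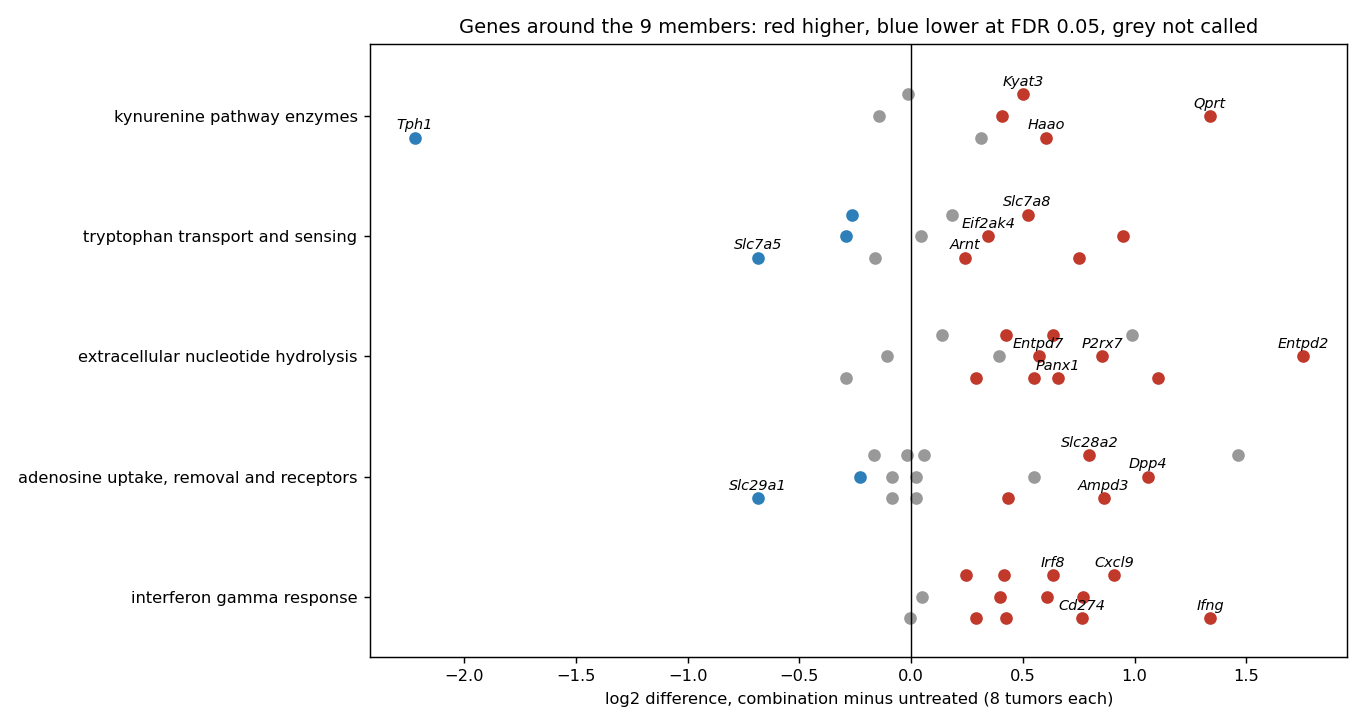
Each point is a gene of one of 5 lists around the members, placed by its log2 difference of combination minus untreated tumors (8 each), red where higher, blue where lower at FDR 0.05 and grey where not called; up to 4 genes a list are named. The nucleotide hydrolysis and interferon gamma rows have no blue point, and Tph1 at -2.22 and Entpd2 at 1.75 are the outermost points.

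Across the 32 tumors, the profile of Entpd1 was closest to those of Cybb and Mpeg1, genes of phagocytes, with Pearson r of 0.97 and 0.969, and 0.905 and 0.912 after group means were subtracted. Adora2a followed Gimap3, a lymphocyte gene, at 0.916 (0.784 within groups) and Arhgap45 at 0.909 (0.760). Kynu followed AU020206 at 0.90 (0.49) and Sod3 at 0.882 (0.599). Ada followed Rab15 at 0.836 (0.624) and the endothelial cadherin Cdh5 at 0.831 (0.623). Nt5e was closest to Abcb1b at 0.809 (0.727) and Plod3 at 0.808 (0.769), and Adora2b to Olfm1 at 0.822 (0.679) and Gltp at 0.797 (0.701). Ido1 was closest to Ly6c1 at 0.786 (0.780) and Ly6a at 0.745 (0.772). Kmo was closest to Nsg1 at 0.696 (0.648) and Cpq at 0.691 (0.638), and Tdo2 to Mup22 at 0.704 (0.707) and Vdr at 0.603 (0.662). Among the members themselves, Kynu and Adora2a had the highest r, 0.805, which was 0.273 within groups, and Kynu and Kmo the highest within groups, 0.505. Nt5e and Adora2b had the lowest, -0.465, which was -0.125 within groups. All genes of a tumor share its library and its depth, and these values are descriptions without a test.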

How the data were processed

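Poly(A) RNA of single tumors was sequenced as stranded libraries. The submitters' processing notes name cutadapt 1.9, HISAT2, StringTie, STAR, Partek, DESeq2, edgeR and mm39, without saying which made each table. The signal values used were deposited by the authors as normalized counts, scaled by library. In a larger deposited table of 52 libraries, 100% of low values in the 32 tumors were whole multiples of 1 step per library (tolerance 0.1), from which reads were recovered, though in 9 of them the step was too near 1 for this to be a check. A file of the authors' own comparisons was not used.

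Tumors were grouped by label. Each comparison was fitted on its 16 tumors with limma 3.58.1 (R 4.3.3, trend) on log2(normalized count + 1), which understates changes of low genes, after edgeR's filterByExpr (minimum 10), and the interaction on 32. Adjusted p-values are Benjamini-Hochberg over all genes tested. Alternatives were edgeR 4.0.16 and DESeq2 1.42.0 on recovered reads, other filters, a pseudocount of 0.1, a joint fit, a replicate block, deeper libraries and leaving out each tumor. Deeper libraries are those above 14000000 reads, which leaves out 7 of the 32 tumors. Scripts were tested on simulated data. Members, lists and motifs were chosen with earlier results of these data known. Named list genes were those called in combination against untreated, at most 4 per list by adjusted p, and Krt8, Adora1 and Adora3 were named after their values were seen. Exon lengths came from GENCODE on GRCm38 and positions from the deposited table. Another 20 libraries enter no comparison. The full genotype of the tumor line is not reported here.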

Additional observations from a re-analysis of the deposited data

Results flagged for a closer look

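Untreated tumor 3 stood apart from the other 7 untreated tumors in 2 members. Kmo was at 97.71 normalized counts there, with the next tumor at 60.1 and the lowest at 42.2, and Tdo2 was at 14.25, with the next at 7.78 and the lowest at 3.01. Each gap, divided by the range of the group, exceeded the 95% critical value for 8 samples, and about 1 group in 20 does so by chance. The search covered 36 groups, the 9 members in 4 groups each. The same tumor also held the highest untreated value of Ido1, Kynu, Adora2a and Adora2b.

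For 3 members the difference made by ADU-S100 was not the same with and without anti-LTbR, by the interaction test over 32 tumors. The interaction was -0.85 on the log2 scale for Nt5e (adjusted p = 0.00192 by limma), 0.62 for Adora2a (adjusted p = 0.0211) and 1.10 for Adora2b (adjusted p = 0.00663). With anti-LTbR in place, adding ADU-S100 went with a change of -0.54 for Nt5e and 0.85 for Adora2b. Without the antibody the same addition went with 0.31 and -0.25.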

How the results depend on the processing

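Of the 56 member results tested (8 members in 6 comparisons and the interaction), 24 were called, and 18 of these stayed called under every alternative run. The 6 that were lost under at least 1 alternative kept their direction. They were Ada under anti-LTbR, Entpd1 and Adora2a in combination against anti-LTbR, Nt5e in combination against ADU-S100, Entpd1 in anti-LTbR against ADU-S100 and the Adora2a interaction. Another 6 results were called only under some alternative.

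The number of members called was 4 in combination against untreated, and 4 to 6 when 1 tumor was left out. It was 4 (3 to 5) in anti-LTbR against untreated, 0 (0 to 0) in ADU-S100 against untreated, 4 (2 to 5) in combination against anti-LTbR, 6 (5 to 6) in combination against ADU-S100, 3 (2 to 4) in anti-LTbR against ADU-S100 and 3 (3 to 3) for the interaction, the last left-out fits being added after the data were seen. In combination against anti-LTbR, only libraries above 14000000 reads gave 2 members. The count was also 2 without anti-LTbR tumors 2, 5 or 8 or combination tumors 5 or 6.

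Direction turned only for differences near 0 that were not called. With libraries above 14000000 reads, the log2 difference was 0.0430 for Nt5e in combination against untreated, 0.0092 for Ido1 and -0.0816 for Ada in ADU-S100 against untreated, 0.0373 for Adora2b in anti-LTbR against ADU-S100 and -0.0509 for the Entpd1 interaction. The Kmo interaction of -0.02 was 0.0359 and 0.0264 by edgeR with its 2 scalings and 0.0309 by DESeq2, and -0.131 to 0.0393 with 1 tumor left out. With 1 tumor left out, ADU-S100 against untreated ran from -0.0548 to 0.0725 for Ada, -0.223 to 0.0273 for Ido1 and -0.111 to 0.0724 for Kynu. Ido1 in combination against ADU-S100 ran from -0.129 to 0.0893 and Kmo in anti-LTbR against ADU-S100 from -0.0564 to 0.0994. The cause was not tested.

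The labels do not pair tumors by replicate number. After group means were subtracted, same-numbered tumors correlated above 0.1 in 6 of 8 pairs for ADU-S100 against untreated (mean r 0.186). It was 5 of 8 pairs for combination against anti-LTbR (mean r 0.173) and 2 to 4 of 8 in the other comparisons. Differently numbered tumors were not compared, so these values cannot exclude a pairing. A replicate block called 5, 3, 0, 3, 6 and 3 members in the 6 comparisons, in the order above, and 3 for the interaction. The calls over all genes went, for anti-LTbR against untreated from 2555 to 1660 with the block and 1537 in deeper libraries, for combination against anti-LTbR from 4504 to 1450 in deeper libraries and for the interaction from 3240 to 1568 there. The deeper libraries left out 7 of the 32 tumors, so depth and sample size changed together. In anti-LTbR against ADU-S100 they went from 1069 to 1636 by DESeq2 and to 709, 469 and 445 without a filter, in a joint fit and with the block.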

Other observations

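The larger table holds 20 libraries of another experiment on the same tumor model, scaled together with the 32 tumors described above. For 15 of them the labels name 2 different treatments, and 5 are labelled combination throughout. Tdo2, which did not exceed 16.6 normalized counts on that scale in the 32 tumors, had a median of 51.1 in the 15 libraries, from 18.6 to 173, and of 50.4 in the 5, from 15.1 to 77.6, beside 8.03 in the 8 combination tumors. Kynu had a median of 72.0 in the 15, from 41.8 to 245, and of 89.6 in the 5, from 64.2 to 119, beside 52.5 in the 8 combination tumors, from 31.2 to 90.4. Kmo had medians of 136 and 123, beside 74.8 in the 8 combination tumors.

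Adora2a reached 1058 in 1 of the 5 combination libraries, whose median was 104, and 283 in 1 of the 15, whose median was 51.8, beside a median of 79.1 and a highest value of 93.9 in the 8 combination tumors. Nt5e was at 438 in 1 of the 5, whose median was 2165, beside a median of 2593 and a lowest value of 2298 in the 8 combination tumors. Ido1 had medians of 15.8 and 26.4, beside 20.4 in the 8 combination tumors, and Entpd1 had 1353 and 1783, beside 1562. The median of Ada was 76.4 in the 15 and 154 in the 5, and that of Adora2b was 52.5 and 103, beside 164 for Ada and 56.4 for Adora2b in the 8 combination tumors. The 2 experiments were not compared by a test.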
